A study of Mus musculus with 24 samples.

Results

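The genes described here are 36 members of the p53 pathway. With earlier results of these data known, they were picked by symbol from the 55401 genes of the raw count table. They comprise p53 itself (Trp53), its regulators, and established transcriptional targets in cell cycle arrest, apoptosis, DNA repair and metabolism. Messenger RNA was sequenced from CD4 and CD8 T cells sorted from spleens of C57BL/6 mice of 12 weeks and activated in vitro for 2 days with antibodies to CD3 and CD28. The study varied Pou2af1, which encodes a coactivator of octamer-binding transcription factors. Each cell type had 3 genotypes with 4 libraries each, which makes 6 groups and 24 libraries. The wild-type group (WT) was CD4.Cre-.Pou2af1fl/fl, so its floxed alleles were intact although its titles read Pou2af1+/+. The heterozygous group (Het) was CD4.Cre+.Pou2af1fl/+ and the knockout group (KO) was CD4.Cre+.Pou2af1fl/fl. CD4-Cre is expressed from the thymic stage at which both co-receptors are present, so it acts in CD4 and CD8 cells alike. Cre was present in every Het and KO animal and in no WT animal, so Cre and the loss of Pou2af1 cannot be told apart in a comparison with WT. The comparison of KO with Het is the one in which both groups carried Cre. Libraries of a group are numbered 1 to 4 in the labels, which do not say whether a number marks an animal, a litter or a day. The p-values therefore measure the spread between these libraries, part of which may be technical.

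p53 is a transcription factor that accumulates when DNA is damaged or replication is stressed, and that binds a pair of adjacent short half-sites in its target genes. MDM2 and MDM4 hold it in check, and since Mdm2 is itself a target, the circuit forms a negative feedback loop. Targets such as Cdkn1a, which encodes the cyclin-dependent kinase inhibitor p21, stop the cell cycle, whereas Pmaip1 (NOXA), Bbc3 (PUMA), Bax and Fas promote cell death. Activated T cells divide rapidly, and p53 and its targets limit their expansion. Much of p53 control acts on protein stability, which RNA sequencing does not measure.

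Promoter sequences are shown first because p53 binds its target genes through such half-sites. The RefSeq promoter table for GRCm38.p6, which holds 250 bases before and 50 after each listed start, covered 28 of the 36 genes with 37 windows. A gene can have more than 1 start, and it was counted where any of its windows held a match. The 10-base p53 half-site consensus, which reads the same on both strands, was matched without mismatch in 14 of the 28 genes (50%) and in 2582 of 27025 genes of the whole table (9.55%). A pair of half-sites placed next to each other, 20 bases with at most 2 mismatches and counted also where a single half-site was matched, was found in 5 of the 28 (17.9%) and in 106 of 27025 (0.392%). Those 5 genes were Cdkn1a, Gtse1, Rps27l, Ccng1 and Ckap2. A match is a description of the letters in this window and says nothing of binding in these cells. Most of the genes were listed as established p53 targets, so their shares beside those of all genes are not an independent test. The 250 bases upstream of the Cdkn1a start whose window held a pair (GRCm38.p6, chr17:29090729-29090978, plus strand) read as follows, with the paired half-sites in capitals.
Cdkn1a: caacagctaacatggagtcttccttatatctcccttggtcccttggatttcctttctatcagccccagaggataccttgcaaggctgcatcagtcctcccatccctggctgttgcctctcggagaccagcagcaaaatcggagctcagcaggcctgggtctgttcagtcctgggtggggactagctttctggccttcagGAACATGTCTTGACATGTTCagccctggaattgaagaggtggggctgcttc
The pair in Cdkn1a began 51 bases upstream of this RefSeq start and held 1 mismatch. Distances to any other start of a gene were not measured. The other 4 are given with 5 flanking bases on each side, the pair again in capitals, so that the spacing and the shared core can be compared.
Gtse1 (chr15:85859940-85859969, plus strand): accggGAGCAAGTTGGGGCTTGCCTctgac
Rps27l (chr9:66946291-66946320, plus strand): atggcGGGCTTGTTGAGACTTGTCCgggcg
Ccng1 (chr11:40755457-40755486, minus strand): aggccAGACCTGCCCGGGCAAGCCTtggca
Ckap2 (chr8:22185998-22186027, minus strand): tctgaAGACATGTCCTGACTTGTCAagcct
The pair began 1 base upstream of the start of its window in Gtse1, 117 bases in Rps27l, 195 bases in Ccng1 and 203 bases in Ckap2. It held 1 mismatch in Gtse1, Rps27l and Ccng1 and 2 in Ckap2.

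Gene counts per library ran from 11.9 to 21.8 megacounts (M). Levels are given as CPM, the count relative to the library size after scaling by the trimmed mean of M values (TMM). Pou2af1, the targeted gene, followed the labels: it measured 38.4 ± 10.95 CPM in CD4 WT, 20.2 ± 4.29 in CD4 Het and 2.20 ± 1.11 in CD4 KO, and 27.7 ± 6.18, 15.5 ± 1.40 and 1.71 ± 0.751 CPM in the same order in CD8 (SD, n = 4). All 5 T cell markers were present in every group, with summed levels of 1027 to 1468 CPM. CD8-lineage markers summed to 58.6 to 80.5 CPM in CD4 libraries and to 1033 to 1165 CPM in CD8 libraries. Most of the sum in CD4 libraries was Runx3, at 46.5 to 68.4 CPM, with Cd8b1 at 7.52 to 14.6 and Cd8a at 0 to 0.668. CD4-lineage markers summed to 3.12 to 17.5 CPM in CD8 libraries. B cell markers, the other main spleen lineage that uses Pou2af1, summed to 6.78 to 31.4 CPM and overlapped between all groups, and myeloid markers stayed under 1 CPM in sum in every library. By Xist and Ddx3y, number 3 of WT, numbers 1 and 2 of Het and number 2 of KO came from females in both cell types. Sex entered only alternative fits, together with the library numbers. In bulk RNA, fewer cells that express a gene and less RNA per cell cannot be told apart.

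Nearly the whole pathway was transcribed in activated T cells. In CD4 WT libraries, Ccng1 (cyclin G1, a regulator of p53 turnover) was highest at 144 ± 21.98 CPM per kilobase of exon, followed by Rps27l (a ribosomal-protein-like p53 target) at 103 ± 6.70. Trp53inp1, Trp53, Bax, Mdm2 and Cdkn1a formed the next tier, at 46.0 ± 9.15, 38.6 ± 2.05, 32.0 ± 3.71, 30.5 ± 2.65 and 29.0 ± 3.58 CPM per kilobase (SD, n = 4). Within that tier each gene lay within 1 SD of its neighbour in the order except Trp53, which lay above Bax by more than either SD. Fas, Gtse1, Btg2, Mdm4, Ei24, Ckap2, Triap1, Polk, Perp, Ppm1d, Apaf1, Aen, Tigar, Ddb2, Plk3 and Bbc3 had means of 10.1 to 24 CPM per kilobase. Plk2, Ercc5, Sesn1, Zmat3, Phlda3, Pmaip1, Pidd1, Tnfrsf10b, Xpc, Rrm2b, Gadd45a and Dcxr lay between 1.90 and 9.47. Eda2r, a receptor of the TNF receptor family, reached at most 0.874 CPM in any library. It was the 1 gene that the filter on low counts removed in both cell types, which left 35 genes tested in each.

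**Figure D1:**
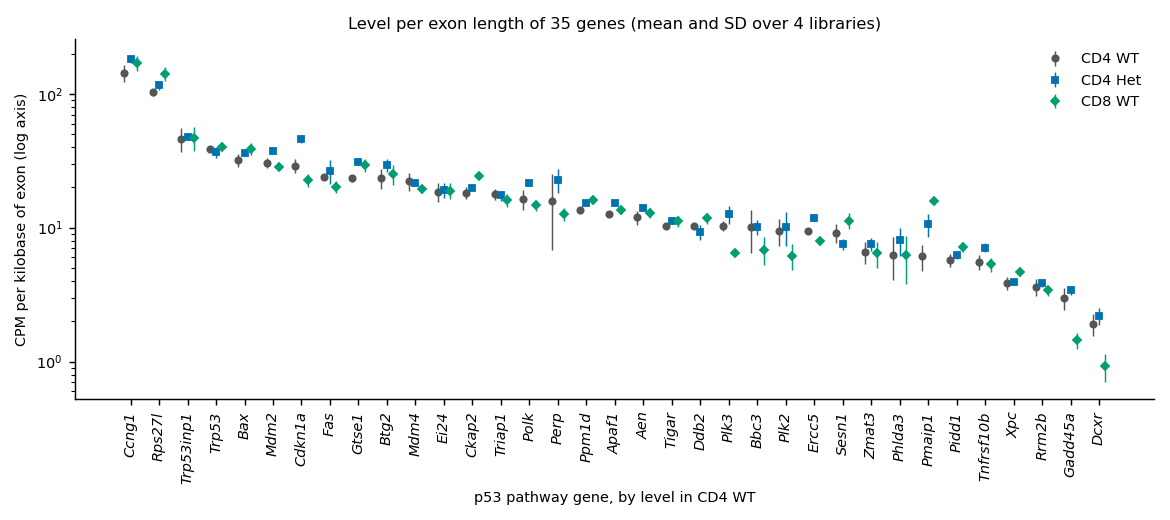
Mean level in CPM per kilobase of exon (vertical log axis) of 35 p53 pathway genes in CD4 WT, CD4 Het and CD8 WT, with bars for the SD over 4 libraries and genes ordered by CD4 WT. Ccng1 and Rps27l lead in all 3 groups, and Pmaip1 stands higher in CD8 WT than its rank in CD4 WT; Eda2r (0.0497 CPM per kilobase in CD4 WT) is not drawn.

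In CD4 cells, most p53 pathway genes had a higher mean in heterozygotes than in wild type, and 1 of them passed the test across all genes. Cdkn1a, the p21 gene (chr17:29090976-29100727, plus strand), measured 99.1, 104, 89.4 and 120 CPM in WT libraries 1 to 4, and 153, 160, 165 and 179 CPM in Het. Every Het library lay above every WT library. The change was 0.66 on the log2 scale (SE 0.10, 1.58-fold) with an adjusted p of 0.0303 in edgeR's quasi-likelihood test. Of all 12719 genes tested, 0.0865% were called in this comparison, 11 genes in either direction. Since the pathway genes were chosen with earlier results of these data known, their shares beside those of all genes are not an independent test. Among the 35 pathway genes, 29 had a higher mean in Het than in WT, and their median change was 0.17, against -0.02 over all genes tested. At an unadjusted p under 0.05, 13 pathway genes were higher and 1, Sesn1, was lower, where 4.56% of all genes were higher. In 12 pathway genes every Het library exceeded every WT library, which held for 3.95% of all genes. These 12 were Mdm2, Ppm1d, Ccng1, Cdkn1a, Gtse1, Pmaip1, Apaf1, Aen, Tnfrsf10b, Ercc5, Polk and Tigar.

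Library 3 of CD4 WT, the only library of a female in its group, held the lowest value of its group for 20 of the 35 genes. Without it, the pathway median was 0.16 and 26 of 35 genes lay above WT, and Cdkn1a had a change of 0.60 with an adjusted p of 0.0820 in edgeR's test. The Cdkn1a call was also lost without WT library 1 (adjusted p = 0.130) or 2 (0.0971) and without Het library 1 (0.0699), 2 (0.114), 3 (0.119) or 4 (0.117), and was kept without WT library 4 (0.0166). In CD4 cells, libraries with the same number deviated together (correlations of 0.132 to 0.349 between Het and WT), and with the number as a block 58 genes were called, 6 of them in the pathway: Mdm2, Cdkn1a, Gtse1, Btg2, Pmaip1 and Apaf1. DESeq2 called 80 genes, 5 of them in the pathway: Cdkn1a, Gtse1, Pmaip1, Apaf1 and Ercc5. With sex and numbers 1 and 2 against 3 and 4 as covariates, 507 genes were called, 12 of them in the pathway, all higher in Het. At all 4 numbers the Het library exceeded the WT library of the same number in 18 of 35 pathway genes, where 11% of all genes did so.

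In CD4 cells the level of p53 RNA itself overlapped between genotypes. Of the genes that control the protein, Mdm2, Ppm1d and Ccng1 were higher in Het than in WT without overlap. None of them passed in the unblocked fit of the CD4 libraries. Trp53 measured 147, 159, 166 and 153 CPM in CD4 WT, 161, 161, 143 and 132 in Het and 162, 151, 162 and 130 in KO, and the groups overlapped. Mdm2, the ubiquitin ligase that degrades p53 (chr10:117688875-117710758, minus strand), measured 170, 160, 138 and 152 CPM in WT and 191, 187, 195 and 189 in Het. Its log2 change of 0.29 (SE 0.07) did not pass in the unblocked fit (edgeR adjusted p = 0.270) and passed with the number as a block (0.0455). Ppm1d, a phosphatase that switches the damage response off, lay at 42.1 to 44.3 CPM in WT and 46.8 to 50.5 in Het. Ccng1 lay at 403 to 585 CPM in WT and 600 to 686 in Het. Mdm4, the non-catalytic partner of MDM2, and Trp53inp1, a cofactor of p53, overlapped between the groups, at 274 to 384 against 311 to 335 CPM and 243 to 364 against 286 to 317 CPM.

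Among the cell cycle genes, Gtse1 was next to Cdkn1a. Gtse1, a G2 and S phase protein that restrains p53 (chr15:85859745-85876573, plus strand), measured 63.1, 68.0, 58.9 and 65.9 CPM in CD4 WT and 89.1, 87.4, 80.4 and 82.2 in Het. All Het values were above all WT values, and the log2 change was 0.40 (SE 0.07). It missed the threshold in the unblocked fit (edgeR adjusted p = 0.0803) and passed with the block (0.0160). Btg2, an antiproliferative gene, lay at 51.8 to 75.9 CPM in WT and 70.1 to 90.5 in Het. The polo-like kinase genes Plk2 and Plk3, the stress gene Gadd45a and the spindle gene Ckap2 each overlapped between WT and Het. Their ranges were 29.9 to 51.8 against 28.8 to 56.7 CPM for Plk2, 24.1 to 29.1 against 26.5 to 37.9 for Plk3, 4.06 to 6.42 against 5.48 to 6.67 for Gadd45a and 51.1 to 64.8 against 58.4 to 66.2 for Ckap2.

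Apoptosis genes differed from one another. Pmaip1, which encodes the BH3-only protein NOXA, measured 13.6, 13.5, 19.2 and 20.6 CPM in CD4 WT, 24.4, 24, 34.6 and 33.4 in Het and 16.8, 21.2, 25.3 and 30.6 in KO. In each group the libraries numbered 3 and 4 exceeded those numbered 1 and 2, and at every number the Het library was highest and the WT library lowest. The log2 change of Het from WT was 0.78 (SE 0.20, edgeR adjusted p = 0.310), and with the number as a block it was 0.80 (SE 0.08, adjusted p = 0.000626). Apaf1, the scaffold of the apoptosome, measured 117, 115, 110 and 113 CPM in WT and 145, 139, 133 and 137 in Het. Its log2 change was 0.27 (SE 0.06), with an adjusted p of 0.165 unblocked and 0.0333 with the block in edgeR's test. The death receptor gene Tnfrsf10b lay at 25.9 to 34.8 CPM in WT and 35.3 to 42.4 in Het, and the nuclease gene Aen at 58.3 to 75.9 and 76.4 to 86.6 CPM.

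Bbc3, the gene of PUMA, showed no such shift, at 23.3, 31.0, 13.4 and 17.9 CPM in WT and 20.3, 25.2, 20.9 and 19.1 in Het. The spread of the desmosomal effector Perp was wide in WT, at 48.2, 44.7, 13.2 and 18.4 CPM, and Het measured 46.5, 55.8, 34.5 and 40.6. Bax, Ei24, Pidd1, Phlda3, Triap1, Zmat3 and Fas, which encode a pore-forming BCL2 family member, an endoplasmic reticulum protein, a death-domain adaptor, an inhibitor of AKT, an apoptosis inhibitor, an RNA-binding protein and a death receptor, all overlapped between the groups. Their log2 changes lay between -0.05 and 0.36.

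In DNA repair, Ercc5 and Polk were higher in Het without overlap. Ercc5, the XPG nuclease of nucleotide excision repair, measured 58.8, 57.6, 53.2 and 52.2 CPM in CD4 WT and 64.0, 70.9, 70.5 and 73.8 in Het. Its log2 change was 0.32 (SE 0.07). In edgeR's fit of the CD4 libraries it passed neither unblocked (adjusted p = 0.165) nor with the block (0.0565). Of 20 alternatives, it passed in 4. These were DESeq2 (adjusted p = 0.0134) and edgeR with all 24 libraries (0.0483). The others were edgeR with numbers 1 and 2 against 3 and 4 as a covariate (0.0366) and with sex added to that (0.00722). Polk, a translesion polymerase, lay at 73.7 to 110 CPM in WT and 112 to 124 in Het. The damage recognition genes Ddb2 and Xpc overlapped, at 27.1 to 29.1 against 22.6 to 29.1 CPM and 19.0 to 24.4 against 20.4 to 22.5 CPM. So did Rrm2b, the p53-induced ribonucleotide reductase subunit, at 27.2 to 37.6 against 33.3 to 38.5 CPM, and Rps27l, at 77.5 to 88.9 against 86.1 to 104 CPM.

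Of the metabolic targets, Tigar, a phosphatase that lowers glycolysis, lay at 37.0 to 38.9 CPM in WT and 39.0 to 43.2 in Het, a small shift without overlap. Sesn1, which restrains mTORC1, had a lower mean in Het, with 32.2, 33.1, 45.0 and 35.6 CPM in WT and 33.1, 30.8, 27.2 and 28.6 in Het, and the groups overlapped. Dcxr, a carbonyl reductase, was near the bottom of the range at 1.62 to 2.61 and 2.30 to 3.07 CPM.

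**Figure D2:**
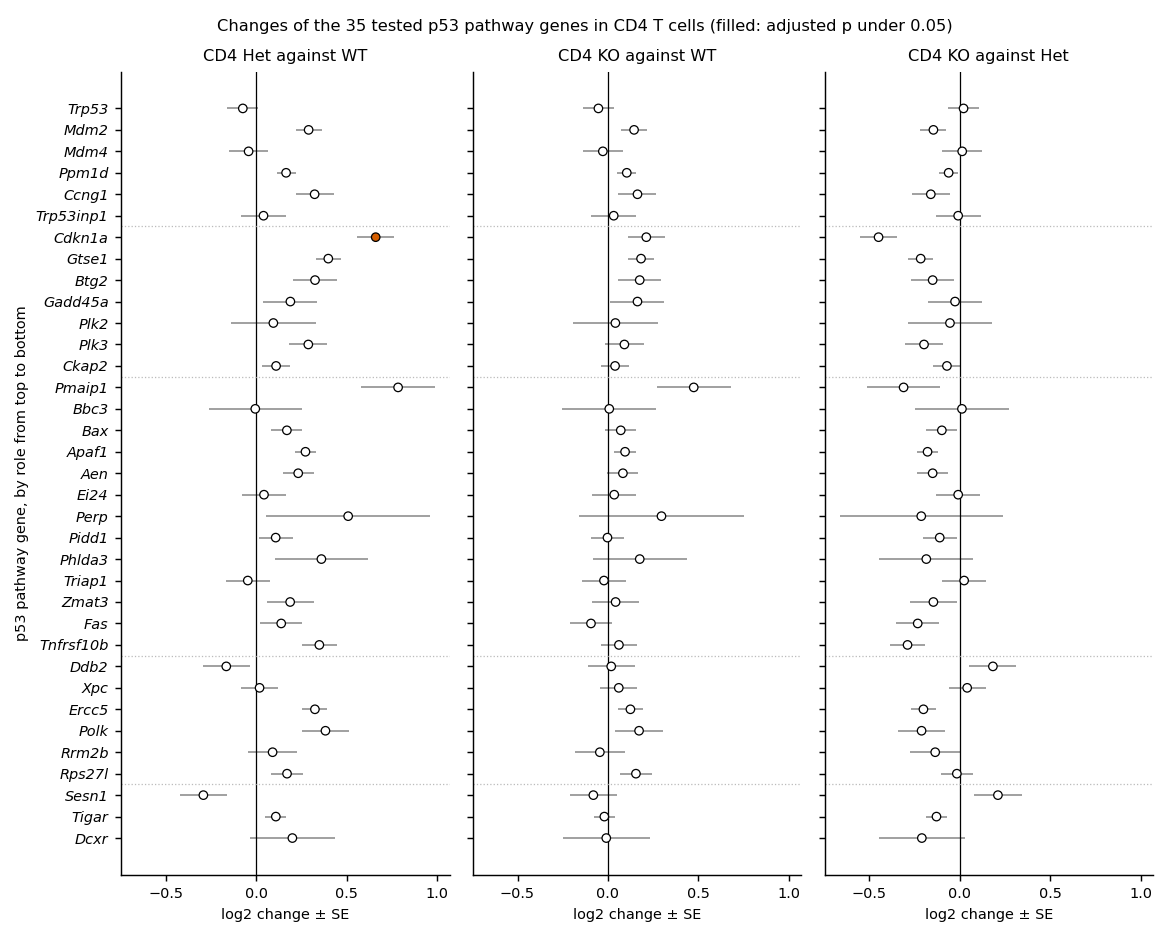
Log2 change with its SE (horizontal axis) of the 35 tested genes, grouped by role from top to bottom, for Het against WT, KO against WT and KO against Het in CD4 cells; a filled point passed at an adjusted p under 0.05. Cdkn1a in Het against WT is the filled point, and most points lie right of 0 in the first panel (29 of 35) and left of 0 in the third (28 of 35).

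Knockout CD4 cells were compared with the same WT libraries as heterozygotes. No pathway gene passed against WT (0 of 35), where 0.0708% of all genes were called. By the fitted log2 change, 26 of 35 genes were above WT, and the median change was 0.06 against -0.01 over all genes tested. At an unadjusted p under 0.05, 2 were higher, Gtse1 and Pmaip1, where 0.951% of all genes were. DESeq2 likewise called 0. Ppm1d was the 1 gene of which every KO library was above every WT library, at 45.5, 47.5, 47.6 and 45.7 CPM, which held for 0.771% of all genes. The 4 genes of lowest p were Gtse1, with a log2 change of 0.18 (SE 0.07), Pmaip1 with 0.47 (SE 0.20), Cdkn1a with 0.21 (SE 0.10) and Mdm2 with 0.14 (SE 0.07), all at an edgeR adjusted p of 1.00. Cdkn1a in KO measured 134, 114, 102 and 132 CPM, which overlapped WT. Gtse1 in KO measured 80.4, 66.2, 71.6 and 73.6 CPM. Compared between libraries of the same number, which deviated together in CD4 cells, KO was above WT at all 4 numbers in 10 of 35 genes, where 7.75% of all genes were: Mdm2, Ppm1d, Cdkn1a, Btg2, Plk3, Pmaip1, Apaf1, Perp, Ercc5 and Polk. With the number as a block 0 of 35 genes passed in KO against WT.

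KO was then set against Het, with Cre in both groups. None of the 35 genes passed (0 called by edgeR and 0 by DESeq2), where 0.0157% of all genes were called. The KO mean was below Het in 28 of 35, with a median of -0.14 against 0.01 over all genes tested. At an unadjusted p under 0.05, 6 were lower and 0 higher, where 1.68% of all genes were lower. In Mdm2, Cdkn1a, Tnfrsf10b, Ercc5 and Tigar every KO library was below every Het library, which held for 1.44% of all genes. The genes of lowest p were Cdkn1a, with a log2 change of -0.45 (SE 0.10), Gtse1 with -0.22 (SE 0.07), Apaf1 with -0.18 (SE 0.06) and Tnfrsf10b with -0.29 (SE 0.10), each at an edgeR adjusted p of 1.00. This comparison shares its Het libraries with the first and is not independent of it.

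When Het and KO were averaged as Cre carriers and set against WT, 0 of 35 genes passed, where 0.0786% of all genes were called. The carriers' mean was above WT in 30 of 35, with a median of 0.12 against -0.01 over all genes tested, and 11 were higher at an unadjusted p under 0.05, where 2.77% of all genes were. Cdkn1a had a log2 change of 0.44 (SE 0.09, adjusted p = 0.193), Gtse1 0.29 (SE 0.06, 0.242), Ercc5 0.22 (SE 0.06, 0.592) and Apaf1 0.18 (SE 0.05, 0.592) in edgeR's test. With the number as a block 25 of 12719 genes were called, 2 of them in the pathway, Cdkn1a and Pmaip1. DESeq2 called 29 of 27994 genes, 2 of them in the pathway, Cdkn1a and Gtse1.

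**Figure D3:**
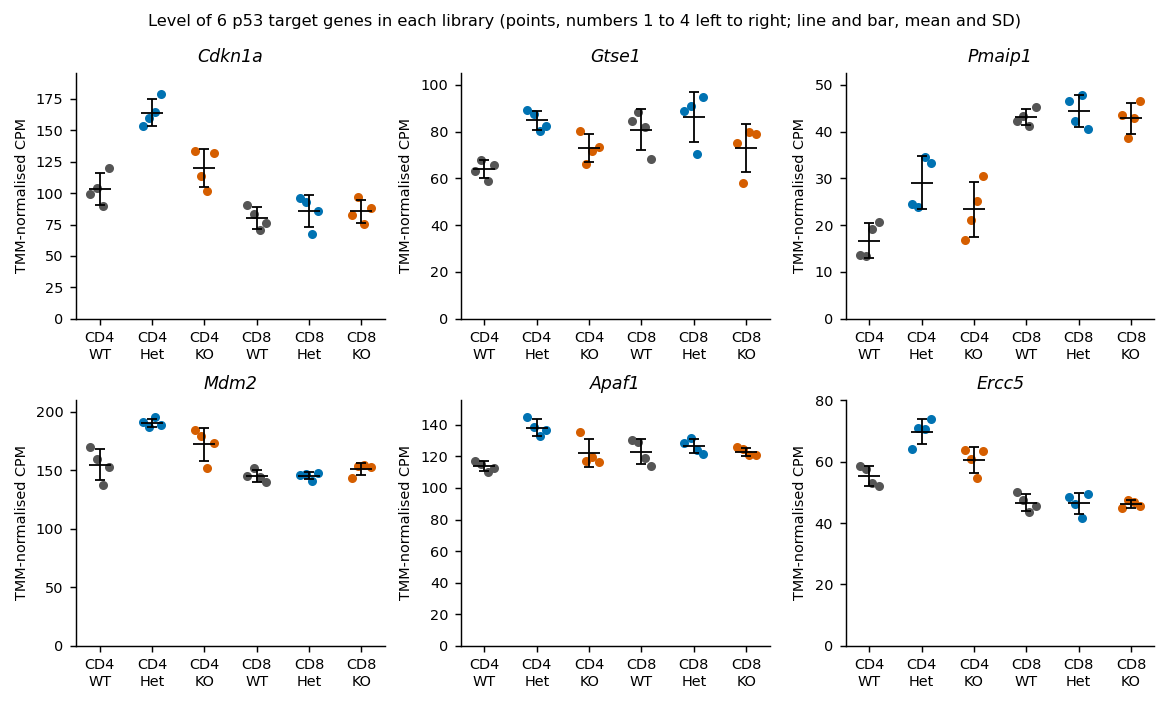
TMM-normalised CPM of Cdkn1a, Gtse1, Pmaip1, Mdm2, Apaf1 and Ercc5 in each library (points, numbers 1 to 4 from left to right) of the 6 groups, with the mean and SD over 4 libraries. All 4 CD4 Het points lie above all CD4 WT points for each of the 6 genes, and the CD8 groups overlap.

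In CD8 cells no pathway gene passed in Het against WT, where 0.0634% of all genes were called, or in KO against WT, where 0.0634% were called as well. DESeq2 called 0 in each. At an unadjusted p under 0.05, 1 was higher in Het, where 0.848% of all genes were, and 0 in KO, where 1.57% of all genes were. By the fitted log2 change, Het was above WT in 27 of 35 genes with a median of 0.04. KO was above WT in 15 of 35 with a median of -0.01, against 0.00 over all genes tested in both. Cdkn1a measured 90.8, 83.3, 71.0 and 75.9 CPM in CD8 WT, 96.4, 92.7, 67.8 and 85.9 in Het and 82.8, 96.8, 75.1 and 87.8 in KO, and the groups overlapped. Pmaip1 measured 42.3, 43.3, 41.3 and 45.3 CPM in CD8 WT, 46.6, 42.3, 47.8 and 40.6 in Het and 43.6, 38.6, 42.8 and 46.6 in KO. Mdm2 stayed within 140 to 155 CPM over all 12 CD8 libraries.

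Dcxr was the CD8 gene of lowest p in Het, at 1.13, 1.11, 1.28 and 0.689 CPM in WT and 1.71, 1.91, 1.35 and 1.68 in Het, a log2 change of 0.65 (SE 0.24, edgeR adjusted p = 1.00). It was the 1 pathway gene of which every CD8 Het library was above every WT library, which held for 0.809% of all genes. Triap1 (0.24, SE 0.12), Ei24 (0.17, SE 0.12) and Polk (-0.10, SE 0.08) followed, also at an adjusted p of 1.00. In KO against WT, Fas had a log2 change of 0.24 (SE 0.12), Trp53 of -0.10 (SE 0.05), Tnfrsf10b of -0.22 (SE 0.13) and Pidd1 of -0.16 (SE 0.10), each at an edgeR adjusted p of 0.988. KO against Het also gave 0 of 35, where 0.0159% of all genes were called. Fas (0.35, SE 0.12), Trp53 (-0.16, SE 0.05), Ei24 (-0.33, SE 0.12) and Ckap2 (-0.15, SE 0.07) had the lowest p, with adjusted p from 0.689 to 0.736. Fas measured 46.5, 61.5, 40.8 and 47.6 CPM in KO and 41.0, 40.4, 36.8 and 36.9 in Het. Trp53 was the 1 gene with every KO library below every Het library, at 142 to 156 and 162 to 179 CPM, which held for 1.34% of all genes. The Cre carriers as 1 group gave 0 of 35, where 0.0714% of all genes were called. Triap1 (0.20), Dcxr (0.43), Gadd45a (0.19) and Mdm4 (0.09) had the lowest p there, each at an edgeR adjusted p of 1.00.

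Library 2 of CD8 KO lay at an end of its group's range in many of these genes, although Dixon's rule, used below, set none of its values apart. This library held the lowest value of its group for 14 of 35 genes and the highest for 14. It measured 406 CPM of Ccng1, where the other KO libraries had 549 to 653, and 37.7 CPM of Bax, where they had 58.2 to 67.3. Mdm4 was 421 CPM in it against 276 to 309 in the others, and Btg2 114 CPM against 51.0 to 92.3. CD8 Het library 3 held the lowest value of its group for 22 of 35 genes, among them Ccng1 (478 CPM against 671 to 715) and Zmat3 (50.6 against 76.4 to 101), and CD8 WT library 4 for 19. Library 2 of CD8 KO was also the only library of a female in its group. It had the highest CD4-lineage marker sum of the CD8 libraries (17.5 CPM), with Zbtb7b at 16.2 CPM where the other KO libraries had 2.91 to 7.60, and the highest B cell marker sum of its group (22.98 CPM). Their part in these values was not tested. Without CD8 KO library 2, 0 genes of the pathway passed in KO against WT or against Het, as with it.

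The difference between cell types in the Het effect was tested by its interaction in a fit of all 24 libraries. None of the 35 genes passed, where 0.00753% of all genes were called, so an effect particular to CD4 cells was not shown. The Het change was smaller in CD8 than in CD4 in 28 of 35, with a median difference of -0.10 against 0.02 over all genes tested, and 7 were lower at an unadjusted p under 0.05, where 2.11% of all genes were. Cdkn1a had a difference of -0.57 (SE 0.16, unadjusted p = 0.0016), Ercc5 of -0.34 (SE 0.10), Mdm2 of -0.30 (SE 0.09) and Pmaip1 of -0.75 (SE 0.22), each with an edgeR adjusted p of 1.00. For the KO effect 0 of 35 passed, where 0.00753% of all genes were called. Gtse1 (-0.34, SE 0.14), Pmaip1 (-0.49, SE 0.22), Fas (0.32, SE 0.17) and Rps27l (-0.33, SE 0.18) had the lowest p, again at 1.00. DESeq2 called 0 in both.

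**Figure D4:**
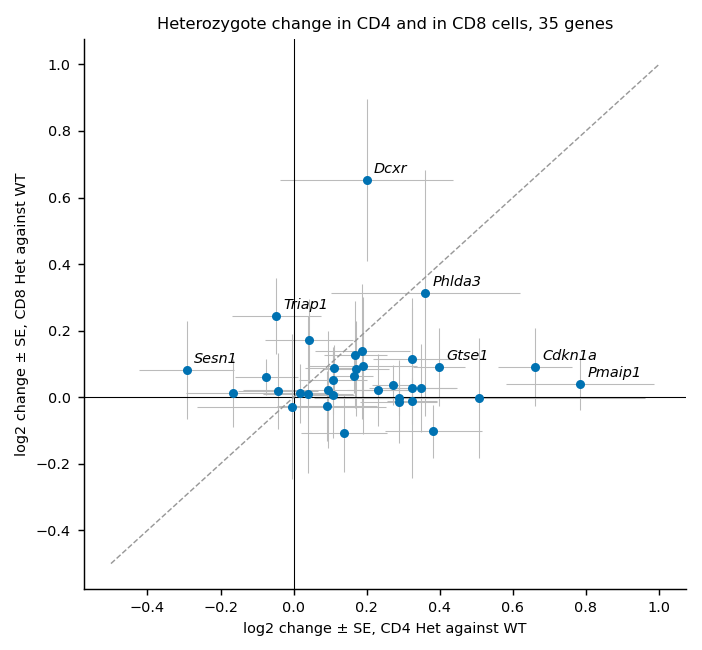
Log2 change of Het against WT with its SE in CD4 cells (horizontal axis) and CD8 cells (vertical axis) for the 35 tested genes, with a dashed line where both are equal. Cdkn1a (0.66 in CD4, 0.09 in CD8) and Pmaip1 (0.78 and 0.04) lie far to the right and close to the horizontal line.

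Wild-type CD8 and CD4 cells differed in the pathway in both directions. Of 35 genes 13 passed, 7 higher and 6 lower in CD8, where 31.2% of all genes were called in either direction, so the pathway's share was close to that of all genes. Pmaip1 was 2.57-fold higher in CD8 (log2 1.36, SE 0.16, edgeR adjusted p = 9.98e-07), at 41.3 to 45.3 CPM against 13.5 to 20.6 in CD4. Rps27l was higher by 0.46 (SE 0.13, 0.00868), Ckap2 by 0.42 (SE 0.08, 0.000193) and Gtse1 by 0.34 (SE 0.10, 0.0144) on the log2 scale, with the adjusted p of edgeR's test after each SE. Gadd45a fell by 1.04 (SE 0.17, 8.31e-05) and Dcxr by 1.04 (SE 0.24, 0.00232), to about 0.485-fold and 0.486-fold of the CD4 level. Plk3 fell by 0.68 (SE 0.12, 0.000171) and Plk2 by 0.62 (SE 0.22, 0.0382). Ppm1d, Pidd1 and Xpc were the further genes higher in CD8, and Cdkn1a and Ercc5 the further genes lower. Plk2 missed the threshold without WT library 2, 3 or 4 of CD4, or without WT library 1 or 2 of CD8, with an adjusted p of 0.0506 to 0.120, and Gtse1 without CD8 WT library 2 (0.0546).

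Other gene lists of the pathway were read beside these results. They held 46 further p53 targets, 21 kinases, ligases and partners upstream of p53, and 20 genes that p53 lowers through p21 and the DREAM repressor complex. In CD4 Het against WT none of their tested genes passed (0 of 42, 0 of 18 and 0 of 20). Of the 42 further targets 22 were above WT, with a median log2 change of 0.03, against 29 of 35 with a median of 0.17 in the genes described here. Of the further targets, 4 were higher and 3 lower at an unadjusted p under 0.05. The 20 DREAM-route genes had a median of -0.02, and 12 of them were below WT. In CD4 KO against WT, the medians of the 3 lists were 0.00, -0.03 and 0.01. Between the wild types, where 31.2% of all genes tested were called in either direction (1946 higher and 2197 lower of 13288), 11 of 20 DREAM-route genes were higher in CD8 and 0 lower, among them Prc1 (log2 0.40), Kif23 (0.39) and Ccnb2 (0.39), which act in mitosis and cytokinesis. The further targets had 4 higher and 15 lower of 44, with Atf3, a stress transcription factor, at -1.87 and Lpxn, a focal adhesion protein, at 1.27. The upstream list had 0 higher and 5 lower of 18: Hipk2, Chek2, Rchy1, Prkdc and Atm. Taken in either direction, that share was near the 31.2% of all genes, but all 5 were lower.

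Library number was then compared with genotype held in the model. The p-values are of edgeR's F test for any difference among the 4 numbers, and no grouping of the numbers was tested. Means and ranges of numbers 1 and 2 and of numbers 3 and 4 are description only. Sex was not in this model. In CD4 cells 8 of 35 genes differed between the numbers, where 17.8% of all genes did, so the pathway's share was near that of all genes. Pmaip1 (edgeR adjusted p = 0.00209), Plk2 (0.00847) and Btg2 (0.0125) had higher means in numbers 3 and 4, by 1.44, 1.46 and 1.23 times the mean of numbers 1 and 2. Zmat3 (0.0211), Bbc3 (0.0238), Phlda3 (0.0325), Perp (0.0361) and Trp53inp1 (0.0410) had higher means in numbers 1 and 2, by 1.22, 1.503, 1.502, 2.02 and 1.20 times. Perp spanned 44.7 to 56.5 CPM in numbers 1 and 2 and 13.2 to 40.6 in numbers 3 and 4, without overlap. Trp53inp1 did not overlap either, at 316 to 364 and 243 to 313 CPM. The share of all genes without such overlap was not computed in either cell type. The count moved from 3 to 14 when 1 library was left out. It was 3 without WT library 1, WT library 4 or KO library 4, 5 without WT library 2, WT library 3 or KO library 1, and 14 without Het library 3.

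By the same F test in CD8 cells, 2 of 35 genes differed by number, where 2.93% of all genes did, again a share near that of all genes. Bbc3 lay at 16.5 to 22.3 CPM in numbers 1 and 2 and 10.2 to 14.6 in numbers 3 and 4 (edgeR adjusted p = 0.0264), and Sesn1 at 45.7 to 54.8 and 34.2 to 45.4 CPM (0.0264), both without overlap. Mdm4, Btg2 and Apaf1 were also without overlap between these numbers, although none of them passed. Trp53inp1 (0.0686) and Btg2 (0.0751) were next and did not pass. Btg2 ran opposite ways in the 2 cell types, with a mean in numbers 1 and 2 that was 1.55 times that of numbers 3 and 4 in CD8 and 0.816 times in CD4, a difference that was not tested. Leaving out 1 library moved the CD8 count from 0 to 5: it was 0 without WT library 1, 2 or 3, Het library 2 or 4, or KO library 1, 3 or 4, 1 without Het library 1, 4 without WT library 4 and 5 without Het library 3.

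**Figure D5:**
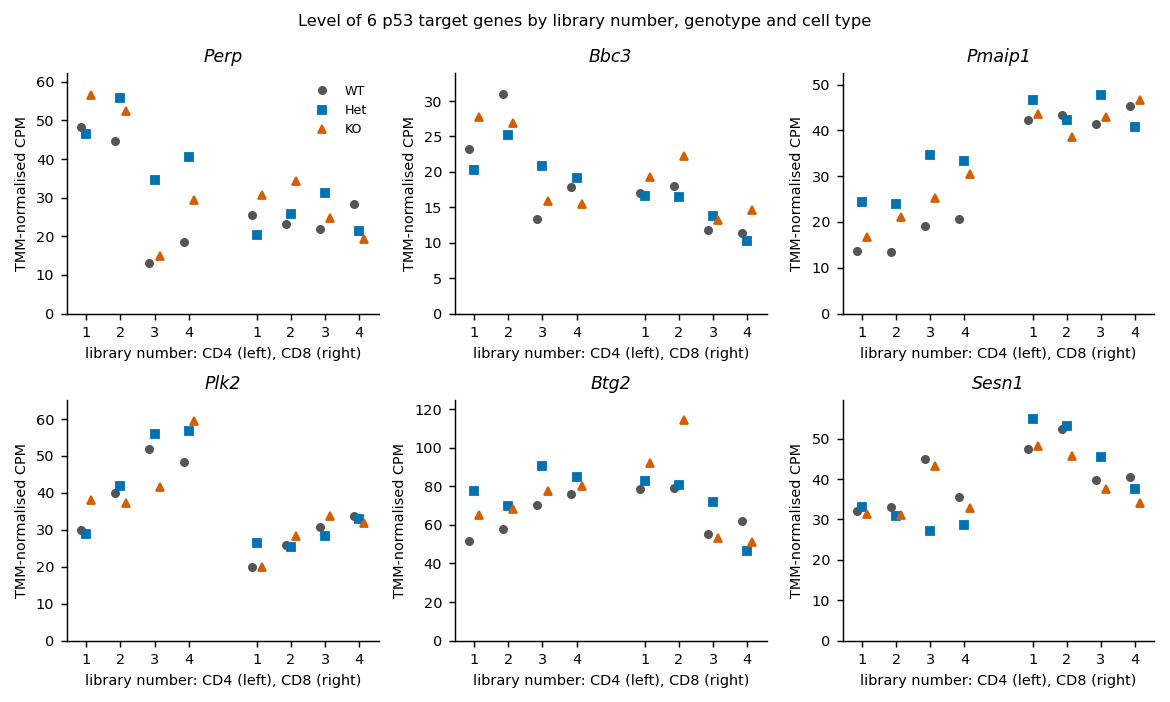
TMM-normalised CPM of Perp, Bbc3, Pmaip1, Plk2, Btg2 and Sesn1 by library number in CD4 cells (left side of each panel) and CD8 cells (right side), with 1 symbol per genotype. Perp spans 44.7 to 56.5 CPM in numbers 1 and 2 and 13.2 to 40.6 in numbers 3 and 4 of CD4, and Bbc3 is lower in numbers 3 and 4 of CD8.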

How the data were processed

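Poly(A) RNA of 24 libraries was counted per gene. The raw values are whole-number read counts the authors deposited. Per the submitters' processing notes, Trimmomatic 0.35, STAR 2.7.1a and DESeq2 1.26.0 were used with GRCm38. The deposited normalized signal, raw counts scaled by 1 factor per library, served 1 alternative. Annotation and strand setting: not given in the sources used here. Whether reads in exons shared between genes were counted or set aside is therefore not known. Exons shared with a gene on the other strand made up 7.68% of Cdkn1a, 19.1% of Gadd45a and 23.8% of Ddb2, and 12.2% of Bax was shared on its own strand. Entries not assigned to a gene (31.6% to 35.0%) were left out. Columns of per-sample values left unused numbered 0.

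The members, gene lists and tests were chosen with earlier results of these data known. Groups follow the labels. No 2 libraries of a group agreed within sampling noise (chi-square over its degrees of freedom at least 2.78 in 36 pairs). Genes passing filterByExpr (count of 10) were fitted with edgeR 4.0.16 in R 4.3.3 (TMM, quasi-likelihood F test, 2-sided, robust), within a cell type or, across cell types, over 24 libraries. Calls needed a p under 0.05 after Benjamini-Hochberg adjustment over all genes tested. Statistics are given for called members (the 4 largest each way beyond 8), or the 4 of lowest p where fewer than 3 passed. Levels per kilobase use GENCODE vM21 exon lengths. Alternatives were DESeq2 1.42.0, limma 3.58.1 on log2 of the normalized signal plus 1, DESeq2 size factors, no filter, other samples or covariates, each library left out and, chosen after seeing the data, no robust option and a block within genotype. The fit was tested on simulated data. A count of 3, the floor, was 0.136 to 0.253 CPM, for counting error only.

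Since the labels do not say whether equal numbers pair libraries, deviations from the group mean were correlated between them. In CD4 every same-numbered pair exceeded 0.1 (0.132 to 0.349 for WT with Het, 0.379 to 0.580 for WT with KO, 0.205 to 0.467 for Het with KO). In CD8 not every pair did (lowest -0.226, 0.0565 and 0.0678). Between CD4 and CD8 of a genotype every pair did (0.147 to 0.451). Correlations between different numbers are not given, so these values cannot tell a pairing by number from a shift shared by several numbers.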

Additional observations from a re-analysis of the deposited data

Results flagged for a closer look

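Over 210 combinations of a gene and a group, each with 4 libraries and a mean of at least 1 CPM, 7 (3.33%) had a library set apart from the other 3 by a gap above Dixon's critical share of the group's range. Chance alone sets apart about 1 in 20. Ccng1 in CD4 KO was 486.9 CPM in library 2 and 588 to 603 in the others. Trp53inp1 in CD4 Het was 285.7 CPM in library 3 and 313 to 317 in the others. Aen in CD8 Het was 62.0 CPM in library 3 and 78.7 to 81.9 in the others. Ppm1d in CD8 WT was 54.4 CPM in library 2 and 49.1 to 49.95 in the others. Triap1 in CD8 Het was 25.5 CPM in library 4 and 19.2 to 19.3 in the others. Sesn1 in CD4 KO was 43.3 CPM in library 3 and 31.1 to 32.8 in the others. Dcxr in CD4 Het was 3.07 CPM in library 4 and 2.30 to 2.37 in the others.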

How the results depend on the processing

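For CD4 Het against WT, the number of pathway genes called, with all genes called in brackets, was 5 (80) with DESeq2, 6 (58) with the replicate block, 7 (82) with numbers 1 and 2 against 3 and 4 as a covariate, 12 (507) with sex added to that, 4 (365) with numbers 1 and 2 only, 2 (103) with numbers 3 and 4 only and 5 (18) with all 24 libraries in the fit. Leaving out 1 library gave 0 to 1. For KO against WT in CD4 cells it was 1 (15) with sex and the numbers as covariates. For the CD4 Cre carriers it was 2 (29) with DESeq2, 1 (14) without a filter on low counts, 2 (25) with the replicate block, 1 (21) with the number covariate, 6 (98) with sex added and 3 (92) with numbers 1 and 2 only. KO against Het in CD8 cells gave 4 (246) with numbers 1 and 2 only, and CD8 WT against CD4 WT gave 7 (2867) with numbers 3 and 4 only. The library number in CD4 cells gave 13 (3700) without a filter and 3 to 14 with 1 library left out, and in CD8 cells 6 (838) with DESeq2, 5 (852) without a filter and 0 to 5 with 1 library left out. The cause of these differences was not tested.

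Among single genes, 3 values changed sign: in CD8 KO against WT with numbers 3 and 4 only, Tnfrsf10b (log2 change 0.028) and Pidd1 (0.057), and in the CD8 Cre carriers with numbers 1 and 2 only, Gadd45a (-0.0025). Cdkn1a in CD4 Het against WT passed in 12 of 20 alternatives, with an adjusted p of 4.40e-06 to 0.130 and a log2 change of 0.60 to 0.74. The replicate block changed no call in KO against WT, KO against Het or the 4 CD8 genotype comparisons, each with 0 pathway genes called, or in the interactions, and added Bbc3 to the 13 genes called between the wild types (14). In CD8 cells not every same-numbered pair exceeded a correlation of 0.1. Whether the numbers pair libraries was not settled in either cell type. Counts set the limit at the low end: Eda2r and Dcxr lay within 0 to 3.13 CPM in every library.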
